A study of Mus musculus with 46 samples.

Results

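The comparison described here sets XY fetal mouse gonads labelled Enh13-3bp-12bp-del-hom (n = 3) against XY gonads labelled Enh13-3bp-del-hom (n = 5). These are 8 of the 46 libraries of the series, chosen by their labelled sex and genotype. Each library is poly(A) RNA from whole gonads at stage E12.5, when the testis has begun to form. Both groups are labelled homozygous for changes in Enh13, so neither is a control with an intact enhancer. The labels do not say what the combined name 3bp-12bp-del stands for, and it is used here as a name. The wild-type XY gonads (n = 3) are given for orientation. The XX gonads of the same pair of genotypes (n = 5 each) share no library with the XY comparison and serve as a separate set. The labels name no strain, litter, sequencing batch or date, so anything of that kind shared by the libraries of 1 genotype cannot be told apart from genotype. Nothing in them says that replicates are separate animals, and the p-values then measure the spread between these samples.

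Sox9 encodes the transcription factor that turns the supporting cells of the early gonad into Sertoli cells, the cells that organise the testis. Enh13 is a remote enhancer of Sox9 that is bound by factors of the early gonad. Sertoli cells then secrete Amh, which removes the female ducts, and Dhh, which acts on the steroid-producing cells around them. In the ovary the same supporting cells become pregranulosa cells, marked by Foxl2. In whole gonads a lower number of cells of a type and less RNA per cell cannot be told apart.

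One library of the 3bp-del group stood apart before any comparison. In replicate 1, 498 genes were more than 2-fold above all the other 7 libraries, and the first principal component, with 36.5% of the variance, separated it from them. A list of 10 yolk sac endoderm genes summed to 4394 CPM (counts scaled to library size and composition, a unit used throughout) in replicate 1 and to 23.8 to 42.3 CPM in the other 7. The alpha-fetoprotein gene Afp was at 2225 CPM there and at most 5.25 CPM elsewhere among them. Genes of covering epithelia summed to 783 CPM, against 48.7 to 76.8 CPM, and surface epithelium genes to 1025 CPM, against 350.0 to 422 CPM. The endoderm and covering epithelium lists were chosen after the values were seen. Counts of called list members that change without this library are also given without it. In the 3bp-12bp group, the ribosomal RNA row Rn18s took 3.99% of the counts of replicate 2 and 0.102 to 0.600% in the other 7 libraries. Beyond leaving each library out, their part in the results was not tested. Total counts ran from 32806937 to 46150388 over the 8 libraries.

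None of the 25 Sertoli genes, and none of the 9 genes around Sox9, was called between these genotypes, while long genes were mostly higher and short genes mostly lower in the 3bp-12bp gonads. Sox9 (chr11:112782224-112787760, mm10) was at 222, 323 and 247 CPM in the 3bp-12bp libraries and at 207, 199, 174, 219 and 226 CPM in the 3bp-del libraries. The ranges overlapped in 1 library, since 222 CPM lay below the 226 CPM of the highest 3bp-del library. The log2 fold change (3bp-12bp over 3bp-del) was 0.35 ± 0.13 (standard error, adjusted p = 0.142, edgeR quasi-likelihood test with Benjamini-Hochberg adjustment over 15865 genes). The wild-type XY libraries stood at 159, 163 and 84.0 CPM. In the last of these, replicate 3, the Sertoli genes summed to 1210 CPM, against 2725 and 2414 CPM in replicates 1 and 2. Mesonephros genes summed to 255 CPM there, against 18.6 and 26.3 CPM. Amh was at 378, 388 and 1211 CPM against 805, 561, 1060, 618 and 406 CPM. A single 3bp-12bp library, replicate 3, carried the highest Amh level of the 8, and the fold change was -0.08 ± 0.48 (adjusted p = 0.937). Dhh was at 226, 224 and 293 CPM against 213, 265, 257, 249.7 and 241 CPM, a log2 fold change of 0.00 ± 0.10. Fgf9, a growth factor that holds back the ovarian pathway, had a log2 fold change of 0.26 ± 0.16 (adjusted p = 0.362).

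**Figure D1:**
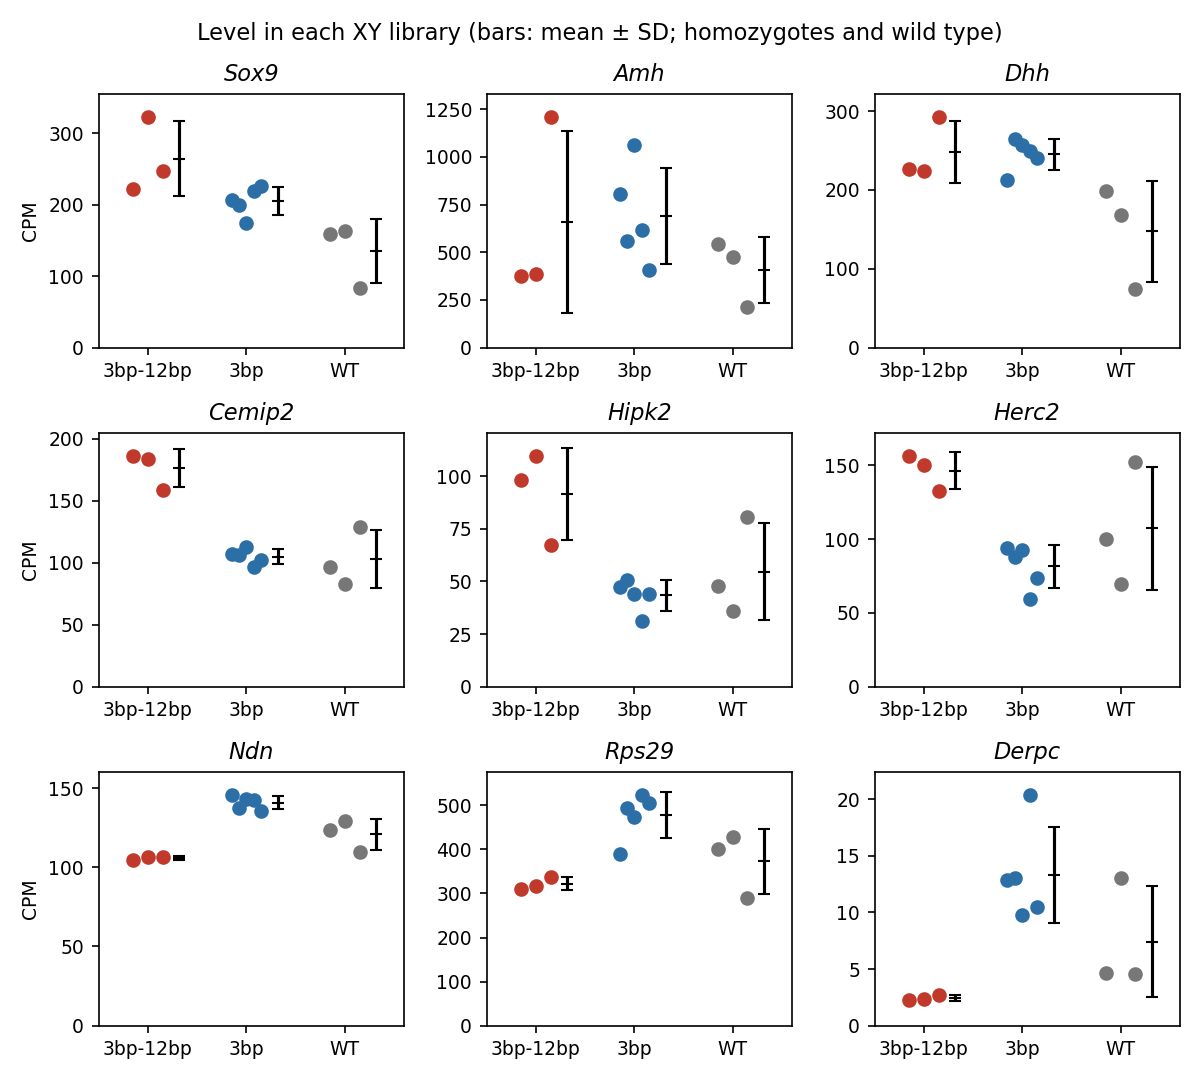
CPM of 9 genes in each XY library of the 3bp-12bp-del homozygotes (3 points), the 3bp-del homozygotes (5 points) and wild type (3 points), with mean and SD as bars on axes that start at 0. Sox9, Amh and Dhh overlap between the mutants, while Cemip2, Hipk2 and Herc2 are higher and Ndn, Rps29 and Derpc lower in all 3 of the 3bp-12bp libraries.

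Of 25 Sertoli genes 0 were called. At an unadjusted p under 0.05 there were 3, and DESeq2 called 1 higher, where it called 6.79% of all genes higher. Their median log2 fold change was 0.00, against -0.02 over all genes tested. The 18 pregranulosa genes also had 0 calls (0 at an unadjusted p under 0.05 and 0 by DESeq2), with a median of 0.02. Foxl2 stayed between 0.665 and 1.37 CPM in all 8 libraries, and its log2 fold change was -0.09 ± 0.30 (adjusted p = 0.887). Wnt4, a signal of the ovarian pathway, was at 0.08 ± 0.18. Among 13 factors of the early gonad 0 were called, with 3 at an unadjusted p under 0.05 and 2, both higher, by DESeq2. Their log2 fold changes ran from -1.07 to 0.95, with a median of -0.003. Gata4 was at 0.05 and Nr5a1 at 0.00 on the log2 scale. The 12 steroidogenic genes had 0 calls (0 unadjusted, 0 by DESeq2) and a median of -0.16. Ptch1, the receptor and target of Hedgehog signals such as Dhh, was at 0.23 (adjusted p = 0.438). The 6 Hedgehog target genes had 0 calls (1 unadjusted, 1 higher by DESeq2), with 4 of the 6 negative. Their median was -0.07 (-0.22 with the length trend removed). Without replicate 1 of the 3bp-del group 1 of them was called higher, where 6.01% of all genes were.

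Of the 9 genes around Sox9 that were tested 0 passed, with 2 at an unadjusted p under 0.05 and 0 by DESeq2. Their median log2 fold change was -0.19, against -0.02 over all genes tested, with 7 of the 9 negative. BC006965 is a noncoding RNA that starts beside Sox9 and runs the other way (chr11:112663927-112781976, minus strand). It was at 7.71, 8.93 and 8.90 CPM against 5.52, 5.92, 6.40, 7.67 and 8.13 CPM. The ranges overlapped, with a log2 fold change of 0.33 ± 0.15 (adjusted p = 0.223). The potassium channel gene Kcnj2 was at -0.48 ± 0.27 and Cdc42ep4 at -0.06 ± 0.05. Within 10 Mb on either side of Sox9, 8 of 262 genes were called (3.05%, against 4.12% over all genes), 3 higher and 5 lower, and 1 of the 8 was called in both the fit as deposited and the fit with the length trend removed.

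Markers of other cells of the gonad gave 1 call among 6 lists. Of 13 stromal genes 1 fell (1.83% of all genes were lower), Mfap4, a matrix protein of connective tissue. At an unadjusted p under 0.05 there were 3, and DESeq2 called 3 lower. The stromal median log2 fold change was -0.21 (-0.36 with the length trend removed), with 11 of the 13 negative. The 15 endothelial genes had 0 calls (5 at an unadjusted p under 0.05, 1 by DESeq2) and a median log2 fold change of -0.01. The 13 macrophage genes had 0 (2 unadjusted, 0 by DESeq2) and 0.03, and the 11 erythroid genes 0 (4 unadjusted, 0 by DESeq2) and -0.33. The 15 general germ cell genes had 0 (1 unadjusted, 1 by DESeq2) and -0.20, with 14 of the 15 negative, and the 11 meiosis genes 0 (2 unadjusted, 0 by DESeq2) and -0.21. Without replicate 1 of the 3bp-del group 2 stromal genes and 1 gene each of the endothelial, macrophage and general germ cell lists were called lower, and 0 of the erythroid and meiosis lists. Over all genes 5.33% were lower in that fit. Cell cycle genes, 18 in number, also had 0 calls (4 unadjusted, 3 by DESeq2) and a median of -0.09.

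Over all genes, 654 of 15865 (4.12%) passed an adjusted p under 0.05 between these genotypes. In the 3bp-12bp gonads 363 were higher (2.29%) and 291 lower (1.83%). DESeq2 called 1077 higher (6.79%) and 916 lower (5.77%). By level alone, all 3 of the 3bp-12bp libraries lay above all 5 others in 1599 genes (10.1%) and below them in 1108 (6.98%). The called changes had a median size of 0.39 log2 units, and 16 of the higher and 8 of the lower genes exceeded 2-fold. Few of the calls stood without every library. Without replicate 1 of the 3bp-del group 1789 genes were called (948 higher, 6.01%, and 841 lower, 5.33%), among them all 654. Without replicates 2, 3, 4 and 5 of that group the counts were 23, 240, 94 and 89. Without replicate 1 or 2 of the 3bp-12bp group 2 genes and 1 gene were called, and without replicate 3 there were 629. So every called gene named here other than the pseudogene row Gm10263 lost its call in at least 1 of these 8 fits. None of the 654 changed sign in any of them.

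The direction of change followed transcript length. Length here is the ratio of deposited count to TPM for each gene, relative to the median gene. Spearman's rho of log2 fold change with length was 0.345 across 15861 genes, which are not independent replicates. It was 0.175 with GENCODE transcript length and 0.540 among genes with a mean log2 CPM of at least 3. In the shortest decile of genes, with a median transcript of 697.5 bases in GENCODE M21, the median log2 fold change was -0.16. In the longest decile, with a median of 3242.5 bases, it was 0.20. Of the genes called higher 91.5% (332) were longer than the median gene, and of those called lower 89.0% (259) were shorter. In the longest decile 11.9% of genes were called higher and 0.0631% lower. In the shortest 0.504% were higher and 5.17% lower.

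**Figure D2:**
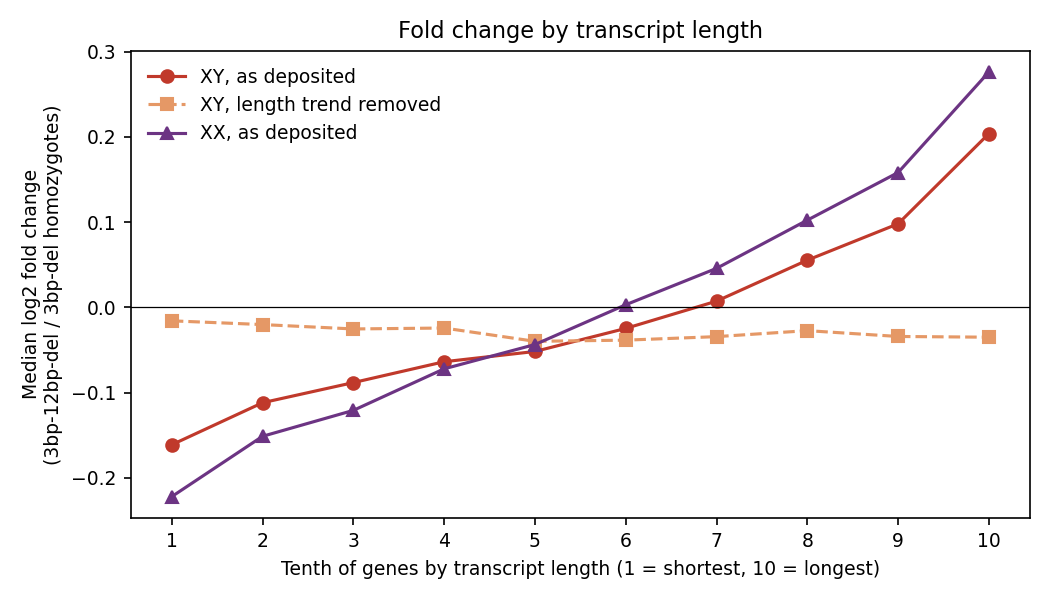
Median log2 fold change of 3bp-12bp-del over 3bp-del homozygotes in 10 equal groups of genes ordered by transcript length, for XY as deposited, XY with the length trend removed, and XX as deposited. The XY line climbs from -0.16 in the shortest group to 0.20 in the longest, the XX line from -0.22 to 0.28, and the corrected XY line stays between -0.04 and -0.02.

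The same trend could be read in single libraries. The length index of a library is the median log2 level of the longest decile of genes minus that of the shortest, each relative to the mean of its sex. The 3bp-12bp libraries were at 0.346, 0.240 and 0.126. The 3bp-del libraries were at 0.194, -0.186, -0.033, -0.417 and -0.179. Only replicate 1 of the 3bp-del group, the library with the endoderm genes, reached into the range of the 3bp-12bp group. The difference of the means was 0.361 (exact 2-sided permutation test, p = 0.0536, where 0.0179 is the smallest p that 3 against 5 allows). Without that library the difference was 0.441 (exact p = 0.0286), and without replicate 3 of the 3bp-12bp group 0.417 (exact p = 0.0476). Without any of the other 6 libraries it was 0.288 to 0.384 (exact p = 0.0857 or 0.190). Wild-type XY gonads covered more than either group, from -0.221 to 0.674. Their highest library, replicate 3, also had mesonephros genes summing to 255 CPM, against 16.4 to 35.7 CPM in the 8 mutant libraries and 18.6 and 26.3 CPM in the other wild-type libraries. What makes the index vary was not tested.

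**Figure D3:**
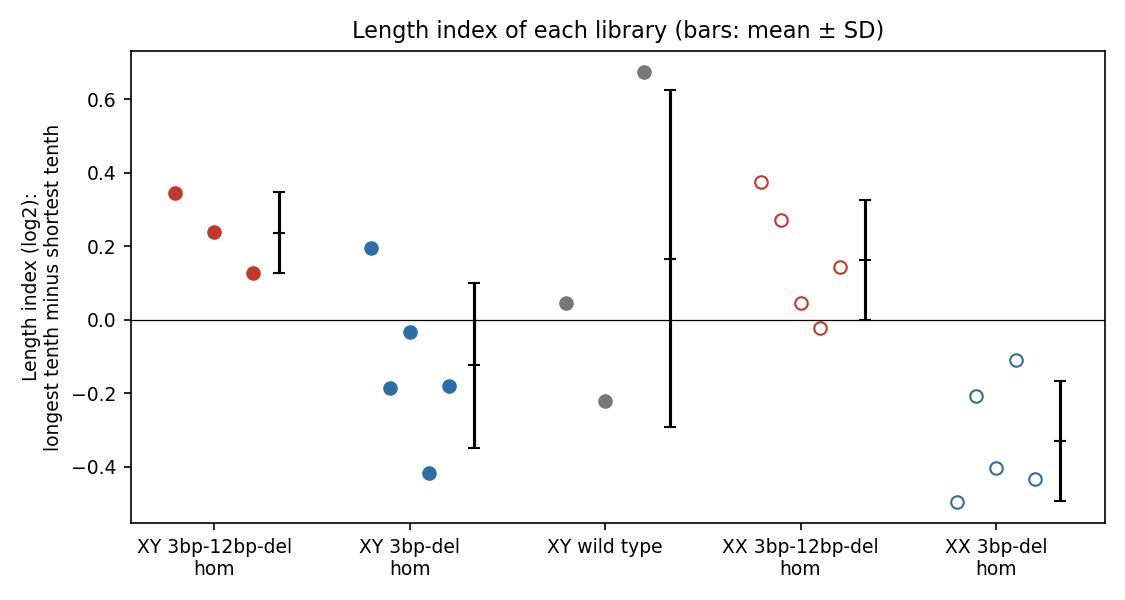
Length index (log2) of each library in 5 groups, XY as filled and XX as open points, with mean and SD as bars. The 3bp-12bp-del homozygotes lie mostly above the 3bp-del homozygotes in both sexes, and the XY wild type spreads from -0.221 to 0.674.

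The genes were therefore fitted again with each library's trend over length removed. The rho of the fold changes with length was then -0.035. This left 241 called genes (1.52%), 83 higher (0.523%) and 158 lower (0.996%), so the share of higher genes among the calls went from 55.5 to 34.4%. This count depends on how length is taken: with GENCODE transcript length in place of the ratio of count to TPM, 577 genes were called. Called in both fits in the same direction were 188 genes (1.18%), 73 higher and 115 lower. Lost with the trend were 466 genes, 290 higher and 176 lower, and 53 were called only with it removed. With this removal the calls numbered 529 without replicate 1 of the 3bp-del group, 161 without replicate 3 of the 3bp-12bp group, and 6 to 9 without any of the other 6 libraries.

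Very long mRNAs were on the higher side. Of 32 genes with giant transcripts 9 rose and 0 fell, where 2.29% of all genes and 11.9% of the longest decile were higher. With the length trend removed 2 rose, against 0.523% of all genes and 18 of the 1586 genes of the longest decile. The median log2 fold change was 0.50 (0.25 with removal), against -0.02 over all genes. Without replicate 1 of the 3bp-del group 16 rose. Without replicates 2, 3, 4 and 5 it was 0, 2, 1 and 0, and without replicate 1, 2 or 3 of the 3bp-12bp group 0, 0 and 8. Herc2, a giant ubiquitin ligase (chr7:56050196-56231800), was at 157, 149.9 and 132 CPM against 94.2, 87.6, 92.7, 59.6 and 73.7 CPM. The groups did not overlap, and the log2 fold change was 0.83 ± 0.15 (adjusted p = 0.0304) and 0.44 with the trend removed (adjusted p = 0.0327). Kmt2a, a histone methyltransferase, was at 94.5, 99.7 and 74.5 CPM against 61.8, 50.8, 62.6, 41.7 and 50.8 CPM. Its log2 fold change of 0.73 ± 0.15 (adjusted p = 0.0363) went to 0.25 and was not called with removal (adjusted p = 0.0757). Vps13c, a lipid transfer protein, stayed called (0.68 ± 0.14, and 0.52 with removal, adjusted p = 0.0479), and the cytoskeletal linker Macf1 did not (0.69 ± 0.14, adjusted p = 0.0385, and 0.54 with removal, adjusted p = 0.0553). Negative fold changes were seen for 2 members, among them Lrp2, an endocytic receptor of yolk sac and kidney (-1.90 ± 1.89, not called, and 1.52 without replicate 1 of the 3bp-del group, adjusted p = 0.15). It was at 119 CPM in replicate 1 of the 3bp-del group and at 1.59 to 14.2 CPM in the other 7 libraries.

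Short mRNAs of the ribosome and the respiratory chain were on the lower side. Of 79 ribosomal protein genes 11 fell and 0 rose, where 1.83% of all genes and 5.17% of the shortest decile were lower. With the length trend removed 11 were called lower, 9 of them called in both fits. After that removal 0.996% of all genes and 29 of the 1587 genes of the shortest decile were lower. As deposited, 78 of the 79 ribosomal protein genes had a negative fold change. Their median was -0.29 (-0.13 with removal). Without replicate 1 of the 3bp-del group 61 fell, without replicates 2 to 5 of it 0, 4, 2 and 0, and without replicates 1 to 3 of the 3bp-12bp group 0, 0 and 7. Rps29 (chr12:69157722-69159186, minus strand) was at 309.8, 317 and 338 CPM against 389.8, 493, 473, 524 and 505 CPM. All 3 libraries lay below all 5, with replicate 1 of the 3bp-del group nearest, and the log2 fold change was -0.58 ± 0.09 (adjusted p = 0.0207; -0.39 with removal, adjusted p = 0.0229). Rpl27 fell from 208, 309.6, 268, 322 and 299 CPM to 184, 170.2 and 177 CPM (-0.68 ± 0.12, adjusted p = 0.0294; -0.52 with removal, adjusted p = 0.0249). The abundant Rplp0 and Rps2 were at -0.30 and -0.32 and were not called (adjusted p = 0.0809 and 0.0796).

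**Figure D4:**
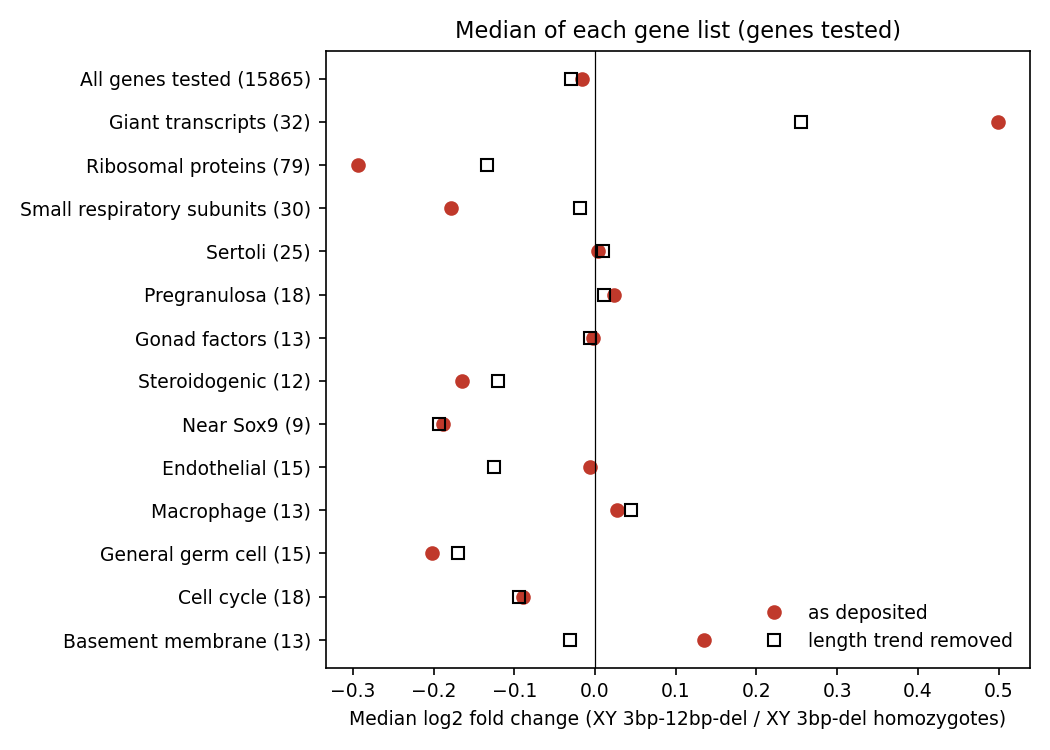
Median log2 fold change (XY 3bp-12bp-del over XY 3bp-del homozygotes) of 13 gene lists, named on the axis, and of all genes tested, as deposited (filled circles) and with the length trend removed (open squares), with the number of genes tested in brackets. Giant transcripts (0.50) and ribosomal proteins (-0.29) lie furthest from 0 among the 13 lists plotted and move inward with removal, while Sertoli and pregranulosa genes stay near 0. Some lists that are not plotted lay further out, such as adrenal genes (-1.13) and mesonephros genes (0.62).

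Among 30 small subunits of the respiratory chain 7 fell and 0 rose, where 1.83% of all genes and 5.17% of the shortest decile were lower. With the length trend removed 3 fell, against 0.996% of all genes and 29 of the 1587 genes of the shortest decile. The median log2 fold change of the 30 was -0.18 as deposited (-0.02 with removal). The count was 14 without replicate 1 of the 3bp-del group, 1, 3, 3 and 2 without its replicates 2 to 5, and 0, 0 and 5 without replicates 1 to 3 of the 3bp-12bp group. Cox8a, of complex IV, was at 127, 132.5 and 129 CPM against 167, 205, 187, 207 and 184 CPM. The groups did not overlap, with a log2 fold change of -0.56 ± 0.07 (adjusted p = 0.0148; -0.40 with removal, adjusted p = 0.0249). Ndufa11 and Ndufb2, of complex I, fell by 0.52 and 0.59 on the log2 scale and stayed called with removal (adjusted p = 0.0484 and 0.0265). Cox4i1, an abundant subunit that was not called, was at -0.07 (adjusted p = 0.679).

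Genes of varied function rose in both fits. Cemip2 is a cell-surface protein linked to hyaluronan breakdown (chr19:21778342-21858360). It was at 187, 184 and 159 CPM in the 3bp-12bp libraries and at 107, 106, 113, 96.7 and 103 CPM in the 3bp-del libraries. The groups did not overlap, with a log2 fold change of 0.74 ± 0.07 (adjusted p = 0.00884; 0.50 with removal, adjusted p = 0.00536). The wild-type XY libraries were at 96.7, 83.0 and 129 CPM. Hipk2, a nuclear kinase (chr6:38694390-38876165, minus strand), was at 98.0, 109.8 and 67.5 CPM against 47.5, 50.7, 44.0, 31.0 and 43.8 CPM. It rose by 1.07 ± 0.19 log2 units (adjusted p = 0.0315; 0.82 with removal, adjusted p = 0.043).

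The groups did not overlap in further genes that rose in both fits. The kinesin gene Stard9 rose by 0.98 ± 0.16, the copper transporter gene Atp7a by 0.74 ± 0.15 and Bdp1, a subunit of the RNA polymerase III initiation factor, by 0.77 ± 0.13 log2 units. Snhg17, a snoRNA host gene, was at 7.87, 12.3 and 9.61 CPM against 4.79, 3.99, 5.50, 4.54 and 3.75 CPM (1.12 ± 0.18, adjusted p = 0.0212). Ptprv rose by 1.13 ± 0.22 at 2.33 to 8.67 CPM. Zbed6, a transcription factor gene that lies inside Zc3h11a on the same strand, rose by 0.91 ± 0.18 while Zc3h11a was at 0.02, and reads of the shared stretch cannot be told apart. Col27a1, a fibrillar collagen, was the 1 gene called of 15 collagens (0.64 ± 0.09, adjusted p = 0.0168), where 2.29% of all genes were higher.

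Ndn, an imprinted regulator of cell growth (chr7:62346569-62350262), fell in both fits. It was at 104, 107 and 107 CPM against 146, 138, 143, 142 and 136 CPM. The spread within each group was small beside the gap between them, and the log2 fold change was -0.42 ± 0.05 (adjusted p = 0.0127; -0.50 with removal, adjusted p = 0.00536). Ndn is longer than the median gene, with a relative length of 1.52. Nnat, also imprinted, fell by 0.47 ± 0.10, and was not called with removal (adjusted p = 0.0936). These were the 2 called lower of 16 imprinted genes, with 0 higher, against 1.83% lower and 2.29% higher over all genes. Without replicate 1 of the 3bp-del group, where this list was high, 3 were called higher and 2 lower. Over all genes 6.01% were higher and 5.33% lower in that fit.

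Lox, which crosslinks collagen and elastin, also fell against the trend, with a relative length of 1.94. It was at 19.5, 13.6 and 18.6 CPM against 36.7, 28.9, 34.9, 26.4 and 25.1 CPM (-0.83 ± 0.17, adjusted p = 0.0335; -0.95 with removal, adjusted p = 0.0268). Mfap4 fell by 0.77 ± 0.14 (adjusted p = 0.0304; adjusted p = 0.0523 with removal). The zinc finger genes Zfp575 and Zfp580 fell by 0.82 and 0.74, the AP-1 subunit gene Jund by 0.40 and the histone variant gene H2ax by 0.41 log2 units, and all 4 stayed called with removal. These were the 1 gene called of 17 immediate early genes (Jund) and of 11 histone genes (H2ax), where 1.83% of all genes were lower. Pfkfb3, a regulator of glycolysis and the 1 called of 19 hypoxia and glycolysis genes, rose by 0.51 ± 0.10, and the Y-linked histone demethylase gene Kdm5d by 0.27 ± 0.06, and neither stayed called (adjusted p = 0.0861 and 0.136 with removal). Without replicate 1 of the 3bp-del group 3 hypoxia and glycolysis genes and 2 of 5 Y-linked genes were called higher, and 2 histone genes lower. Over all genes 2.29% were called higher with every library, and 6.01% higher and 5.33% lower without that one.

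The strongest calls that went with the length trend were long genes on one side and short genes on the other. Higher were Bsn (0.86 ± 0.12), a scaffold of synapses, Ercc6 (0.52 ± 0.07), a DNA repair factor, Usp53 (0.48 ± 0.07) and Pkd2 (0.36 ± 0.05), a calcium channel of cilia. With removal they were at 0.52, 0.23, 0.29 and 0.20, and none was called. Lower were the ribosomal protein pseudogene Rpl23a-ps3 (-0.87 ± 0.12), Emp3 (-0.52 ± 0.07), Rnasek (-0.46 ± 0.06), Atp6v0c (-0.41 ± 0.06), a proton pump subunit, and Gabarap (-0.37 ± 0.05), which works in autophagy. With removal these were at -0.71, -0.39, -0.32, -0.32 and -0.26, and none was called (adjusted p = 0.0513 to 0.117).

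Several of the largest fold changes sat in rows that share their sequence with another row, or by their names may do so. Gm8226 is a processed pseudogene of the ribosomal protein gene Rpl7a (chr9:84423984-84424781). It differs from Rpl7a at 2 of 798 bases and from another pseudogene, Rpl7a-ps11 (chrX:166854211-166855011), at 0 of 798. The stretches around both differing bases are printed to show how little separates the rows, from GENCODE M21 transcripts, with the base that differs from Rpl7a or from the pseudogenes in capitals.
Gm8226 bases 174 to 198: ccgctacatcagGctgcagcggcaa
Rpl7a-ps11, same stretch: ccgctacatcagGctgcagcggcaa
Rpl7a, same stretch: ccgctacatcagActgcagcggcaa
Gm8226 bases 735 to 759: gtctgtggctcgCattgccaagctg
Rpl7a-ps11, same stretch: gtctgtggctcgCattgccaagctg
Rpl7a, same stretch: gtctgtggctcgAattgccaagctg

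Gm8226 was listed at 0, 0 and 0.813 CPM in the 3bp-12bp libraries and at 101, 119, 119, 123 and 122 CPM in the 3bp-del libraries. Its twin Rpl7a-ps11 was at 108, 112 and 100.3 CPM against 0, 8.92, 0, 15.2 and 0 CPM. The 2 rows were thus mirror images, and a read inside the identical 798 bases cannot be assigned to either. The fitted log2 fold change of Gm8226 was -8.55 (adjusted p = 0.00884), and it moved to -15.12 without replicate 3 of the 3bp-12bp group, so it is no measure of size. Summed over both rows the level was 107 ± 5.58 CPM (SD, n = 3) against 122 ± 13.5 CPM (SD, n = 5), a log2 ratio of -0.18 (exact permutation test, p = 0.125). In wild-type XY the rows were mixed, at 59.1, 117 and 76.2 CPM for Gm8226 and at 54.3, 0.273 and 5.85 CPM for Rpl7a-ps11.

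The mitochondrial row ATP6, a subunit of ATP synthase, behaved likewise with the row Atp6-ps, though the likeness of these 2 rows was not measured. ATP6 was at 1691, 1426 and 1625 CPM against 471, 564, 328, 499.9 and 859.6 CPM (1.53 ± 0.26, adjusted p = 0.0319). The row Atp6-ps, by its name a pseudogene of it, was at 1372, 1330 and 1133 CPM against 2805, 2580.0, 2030, 2977 and 4003 CPM (-1.18 ± 0.20, adjusted p = 0.0272). The 2 rows moved in opposite directions, and their sum was 2859 ± 177 against 3423 ± 910 CPM (SD; log2 ratio -0.26, exact permutation test, p = 0.393). Of the 13 mitochondrial rows ATP6 was the 1 called, and without replicate 1 of the 3bp-del group 1 was called higher and 1 lower. Over all genes 2.29% were called higher, and without that library 6.01% higher and 5.33% lower.

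**Figure D5:**
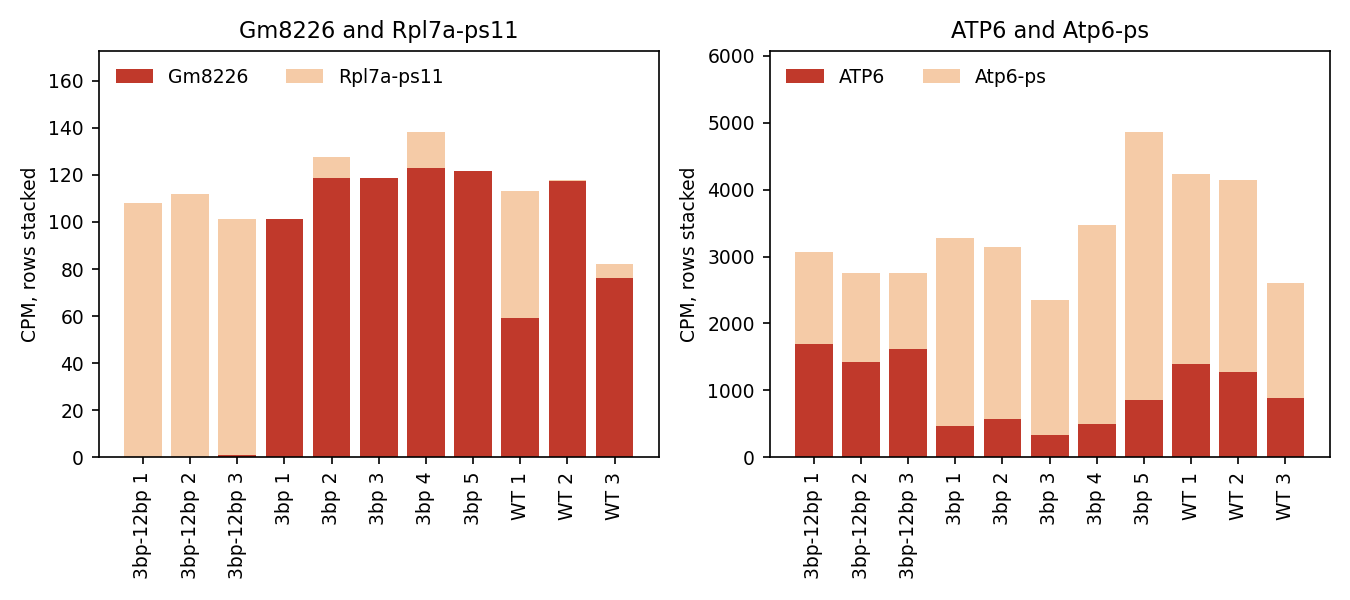
CPM of Gm8226 stacked with Rpl7a-ps11 (left) and of ATP6 stacked with Atp6-ps (right) in the 3 libraries of 3bp-12bp-del homozygotes, the 5 of 3bp-del homozygotes and 3 of wild type, all XY. The share of each row switches between the mutant groups, while the totals of the mutants overlap (107 ± 5.58 and 122 ± 13.5 CPM on the left).

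Gm10263, a processed pseudogene that differs from the ribosomal protein gene Rps28 at 3 of 300 bases (chr13:73317844-73318143), had the smallest p of all genes. The stretch around the first of the 3 differences is printed to show how little separates the rows.
Gm10263 bases 161 to 185: cgagagggtgacAtgctcaccctat
Rps28, same stretch: cgagagggtgacGtgctcaccctat
Gm10263 was at 14.0, 15.9 and 15.4 CPM against 35.3, 43.9, 44.9, 42.2 and 39.4 CPM (-1.46 ± 0.09, adjusted p = 0.000366) and stayed called in all 8 fits that left out 1 library. Its groups did not overlap. Summed with Rps28, which itself was not called (-0.15), the log2 ratio was -0.25 (exact permutation test, p = 0.143). Rps27a-ps3 (-1.02 ± 0.19) and Rps19-ps6 (-1.04 ± 0.23) are by their names also ribosomal protein pseudogene rows. Their likeness to other rows, and that of Rpl23a-ps3, was not measured, so these levels are uncertain too. Gm4654, a pseudogene row with 10 mismatches and 20 gap bases to Gapdh at 0.280 to 2.66 CPM in the 8 libraries, had a log2 fold change of 2.04 ± 0.32 (adjusted p = 0.0215). The Gm rows, Rpl7a-ps11, Atp6-ps, Chtf8 and Zc3h11a were chosen after their values were seen.

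Derpc is a row of low level with a large fall. It was at 2.26, 2.34 and 2.71 CPM against 12.8, 13.1, 9.76, 20.4 and 10.5 CPM, with a log2 fold change of -2.46 ± 0.25 (adjusted p = 0.00948; -2.31 with removal, adjusted p = 0.00573). In RefSeq (GRCm38.p6) Derpc and Chtf8 cover the same stretch of chromosome 8. Chtf8 was at 194 to 252 CPM in all 8 libraries with a log2 fold change of 0.05, so the split of reads between these rows is uncertain too. The wild-type XY libraries were at 4.63, 13.1 and 4.56 CPM, 1 within the range of the 3bp-del group and the others between the ranges of both mutants.

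The XX gonads of the same genotypes have no library in common with the XY comparison. In replicate 1 of their 3bp-12bp group the yolk sac endoderm list summed to 1919 CPM. It summed to 22.7 to 55.0 CPM in the other XX libraries of these genotypes. That replicate also had the highest length index of its group, 0.374. Beyond leaving out 1 library at a time, its part in the XX results was not tested. The XX comparison gave more calls. There 4360 of 15605 genes were called (27.9%), 2327 higher (14.9%) and 2033 lower (13.0%), and with the length trend removed 1086 were higher (6.96%) and 1464 lower (9.38%). The trend with length was present as well (rho 0.499), and the length index differed by 0.492 (exact permutation test, p = 0.00794, the smallest that 5 against 5 allows). Of the 188 genes called in both XY fits 187 had the same sign in XX with the trend removed, against 72.0% of the 15427 genes tested in both sexes, and the exception was Dnhd1. In XX, 144 of the 188 (76.6%) were called in the same direction, against 16.5% of all genes called in either direction. Across genes, the rho of the XY with the XX fold changes was 0.602, and 0.524 with the trend removed.

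In XX, Cemip2 was at 0.86, Hipk2 at 1.07, Herc2 at 1.05, Ndn at -0.47, Rps29 at -0.62 and Derpc at -3.07 on the log2 scale, and all 6 were called. Lox was at -0.31 in XX against -0.83 in XY. Of the ribosomal protein genes 73 of 79 were called lower in XX (38 with removal), where 13.0% of all genes were (9.38% with removal). Of the giant transcripts 31 of 32 were called higher (26 with removal), where 14.9% of all genes were (6.96% with removal). The test of the difference between the sexes called 0 of 16443 genes by edgeR and 0 by DESeq2, with 897 (5.46%) at an unadjusted p under 0.05. A p that misses the threshold does not show that the sexes responded alike.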

How the data were processed

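The authors' deposited table of estimated counts per gene symbol, not normalized as far as its values show, was rounded to whole numbers (8.00 to 8.90% of values per library were not whole). The deposited TPM table, scaled by length by the authors, gave relative transcript length only. The build is mm10, per the submitters' processing notes, and the aligner, the quantifier and whether strand was used: not given in the sources used here. Per table, 1 column matches no sample and was not used. edgeR 4.0.16 in R 4.3.3 (TMM, filterByExpr, robust quasi-likelihood test) was fitted on the 8 libraries, with calls at a Benjamini-Hochberg adjusted p under 0.05. The length trend was removed by a lowess offset (span 0.3) per library over log2 length. DESeq2 1.42.0 was an alternative. Standard errors are the absolute log2 fold change over the square root of F. CPM is scaled by TMM over 46 libraries.

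The scripts were tested on simulated data. Named genes were Sox9 and its neighbours, called and abundant uncalled genes of each list, the 10 largest changes each way called in both fits without overlap, and the 5 strongest each way lost with removal. The text gives part of them, and some are not reported here, and genes from outside are said to be so. The genotypes, lists and rules were chosen with earlier results of these data known. No libraries of a group were copies, with a chi-square over degrees of freedom of at least 18.8 in 13 pairs. Exact permutation tests are 2-sided on the difference of means.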

Additional observations from a re-analysis of the deposited data

Results flagged for a closer look

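Among 114 reported values tested in groups of 5, 14 had 1 library further from the rest than Dixon's critical ratio of 0.71. Chance gives about 1 in 20 for independent values chosen beforehand, and the 14 cannot be set against that rate. The values share libraries, and the endoderm and covering epithelium lists were chosen after the values were seen. Of the 14, 13 were in replicate 1 of the XY 3bp-del homozygotes. In that library the mean log2 CPM of the yolk sac endoderm list was 7.39 (others -0.93 to -0.44), of covering epithelium 6.25 (2.18 to 2.27), of surface epithelium 7.22 (5.42 to 5.66), of immediate early genes 4.57 (3.26 to 3.32) and of imprinted genes 8.78 (8.01 to 8.09). It was also high for heat shock genes at 8.06 (7.52 to 7.65), sterol synthesis at 6.26 (5.73 to 5.88) and male germ cell genes at 4.76 (4.22 to 4.35), and low for gonad factors at 5.62 (5.88 to 5.95). Lrp2 was at 119 CPM there (1.59 to 3.31), Rps27a-ps3 at 24.4 CPM (41.3 to 46.1), Gm8226 at 101 CPM (119 to 123) and Rps28 at 217 CPM (294 to 312). In the XX 3bp-12bp-del homozygotes, Gm8226 was at 98.3 CPM in replicate 5 and at 0.828 to 4.75 CPM in the other 4.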

How the results depend on the processing

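For XY 3bp-12bp-del-hom against XY 3bp-del-hom the count of 654 genes was 656 with RLE size factors, 450 without an expression filter and 439 in 1 fit over all 6 XY groups. It was 1993 with DESeq2, 1534 in 1 fit over all 12 groups and 241 with the length trend removed. All 654 kept their sign under DESeq2 and the 12-group fit, which called 649 and 569 of them. Leaving out 1 library gave 1 to 1789 genes. With the length trend removed it gave 9, 6 and 161 without replicates 1, 2 and 3 of the 3bp-12bp group, and 529, 9, 6, 6 and 8 without replicates 1 to 5 of the 3bp-del group. The cause was not tested. With replicate numbers as a block 1 gene was called, and 0 with the block and the length trend removed. The labels do not say whether the numbers pair these samples. Same-numbered libraries correlated at -0.10, 0.21 and 0.09 in their deviations, and differently numbered ones at -0.24 to 0.17. So few correlations cannot decide whether the numbers carry a pairing. For the count of 241, length from wild-type XY libraries gave 232 and a median offset in 20 length bins 303. GENCODE transcript length, added after seeing the data, gave 577. The rho of 0.345 with length was 0.540 among genes with a mean log2 CPM of at least 3, 0.175 with GENCODE length, and 0.256 to 0.428 without 1 library. For XX 3bp-12bp-del-hom against XX 3bp-del-hom the count of 4360 was 2550 with the length trend removed and 2848 with the replicate block, and 3218 to 4810 without 1 library. The test between the sexes gave 0 under every setting run. ATP6 reversed to -0.26 when summed with Atp6-ps. Depth was 32806937 counts or more, and 3 libraries in the smaller group limit the precision.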
